A study of Oryza sativa with 14 samples.

Results

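Genes of rice (Oryza sativa) that carry the last step of photosynthetic electron transport and its counterpart in roots were followed in seedlings of wild type (WT, the cultivar Kitaake) and of osnat10. They are LIR1 (Os01g0102900), the leaf-type ferredoxin-NADP reductases OsLFNR1 (Os02g0103800) and OsLFNR2 (Os06g0107700), the root isozyme FNR (Os03g0784700), and Os07g0147900. They were picked by locus identifier, 5 of the 38978 genes in the deposited table, and their differences between the genotypes were known when they were picked. OsNAT10 is the rice form of N-acetyltransferase 10, which places acetyl groups on cytidines of RNA. Seedlings of both genotypes grew in Yoshida solution under short days (light for 10 h, dark for 14 h). Of 14 libraries, 3 are WT RNA-seq and 3 are osnat10 RNA-seq, described as biological replicates, and the 8 libraries of acetylated-RNA immunoprecipitation were not analysed here. The allele that osnat10 carries, the number of independent lines behind it, the seedlings' age, the organs taken and the hour of sampling are details not given in the sources used here. OsNAT10 itself gave no check of the labels, since 0 genes of the table matched its name or description.

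Ferredoxin-NADP reductase moves electrons between ferredoxin, a small iron-sulphur protein, and NADP+. In leaf chloroplasts the leaf-type enzymes take electrons from ferredoxin reduced by photosystem I and make the NADPH used in carbon fixation. In the plastids of roots the flow is reversed: the root-type enzyme spends NADPH, made largely by the oxidative pentose phosphate pathway, to reduce ferredoxin for nitrite reduction and other syntheses. Part of the leaf enzyme sits on the thylakoid membrane, held by the proteins TROL and Tic62 in Arabidopsis, and LIR1, a light-regulated protein first described in rice, strengthens that attachment. The table's description gives FNR as a root isozyme, whereas that of Os07g0147900 reads only as similar to a reductase precursor, so its grouping with the root type rests on how the genes were chosen. Gene names follow the deposited table; the RefSeq table of assembly ASM3414082v1 gives the symbol LFNR1 to a gene on chromosome 6, where the deposited table has OsLFNR2.

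Levels are in RPKM, read numbers scaled to gene length and to sequencing depth, so that genes can be set side by side. The libraries held 13688629 to 15583776 reads over genes, and 28577 to 29464 genes had at least 1 read. The WT libraries varied more than the osnat10 libraries: over 10089 genes with a mean of 10 RPKM or more the median coefficient of variation was 22.6% in WT and 8.96% in osnat10. WT replicate 1 stood apart from the other WT libraries. Its antenna genes, which encode the chlorophyll-binding light-harvesting proteins, summed to 11949 RPKM against 809 and 534 RPKM in WT replicates 2 and 3, and to between 3626 and 4089 RPKM in osnat10. CCA1, a transcription factor of the circadian clock that is known to peak around dawn, was at 162 RPKM in WT replicate 1, at 3.71 and 2.52 RPKM in the other WT libraries, and at 62.3, 50.3 and 50.9 RPKM in osnat10. Results are therefore also given against WT replicate 1 alone and against the other WT libraries alone. The part of the difference between WT libraries in the results was not tested.

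LIR1 and both leaf reductases were lower in osnat10 than in any WT library, and the root isozyme FNR was higher than in any WT library. Os07g0147900 overlapped between the genotypes. The values that follow for the 5 genes describe the contrast they were chosen from, and no test is drawn from them.

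LIR1 was the most abundant of the 5 in all 6 libraries. Its level was 657, 1440 and 1317 RPKM in WT replicates 1, 2 and 3, and 306, 406 and 291 RPKM in osnat10. These values rest on 7599, 17898 and 17212 reads in WT and on 3533, 4868 and 3603 reads in osnat10, so that counting error is small beside the spread between libraries. The groups did not overlap, but the lowest WT value, in replicate 1, was 0.477 of the mean of the other WT libraries. The mean was 1138 ± 421 RPKM in WT and 334 ± 62.5 RPKM in osnat10 (SD, n = 3 each), 3.41-fold higher in WT. On the log2(RPKM + 0.5) scale the difference was -1.70 (SE 0.34). The osnat10 mean was 0.508 of the level in WT replicate 1 and 0.242 of the mean in WT replicates 2 and 3.

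OsLFNR2, the more abundant leaf reductase, stood at 320, 401 and 267 RPKM in WT, against 142, 172 and 145 RPKM in osnat10. All osnat10 libraries were well below the lowest WT library, and WT replicate 1 lay between the other WT libraries. The means were 329 ± 67.8 and 153 ± 16.7 RPKM (SD, n = 3 each), a 2.15-fold difference, with -1.09 on the log2 scale (SE 0.21). The osnat10 mean was 0.478 of WT replicate 1 and 0.458 of the mean of the other WT libraries. These ratios were alike only because replicates 2 and 3, at 401 and 267 RPKM, were averaged. Taken singly, those libraries lie on either side of replicate 1.

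OsLFNR1 was at 155, 111 and 91.7 RPKM in WT, against 79.0, 83.9 and 68.6 RPKM in osnat10. The groups did not overlap, though WT replicate 3 was close to the highest osnat10 library. The means were 119 ± 32.2 and 77.2 ± 7.81 RPKM (SD, n = 3 each), 1.54-fold higher in WT, and the log2 difference was -0.59 (SE 0.22). Unlike LIR1, this gene was highest in WT replicate 1, at 1.53 times the mean of the other WT libraries. The osnat10 mean was 0.499 of WT replicate 1 and 0.763 of the mean of the others.

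Set against WT replicate 1 alone, the osnat10 means of LIR1, OsLFNR1 and OsLFNR2 thus lay at 0.508, 0.499 and 0.478 of the WT level. Set against WT replicates 2 and 3, the ratios of the same genes were 0.242, 0.763 and 0.458. The direction had to be the same with either reference, since the genotypes did not overlap in these genes. For LIR1 and OsLFNR1 the size differed between the references.

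FNR, the root isozyme, was at 64.6, 47.0 and 31.2 RPKM in WT, against 73.0, 84.3 and 85.7 RPKM in osnat10. Every osnat10 library was above the highest WT library, which was again replicate 1. The means were 47.6 ± 16.7 and 81.0 ± 6.94 RPKM (SD, n = 3 each), 1.70-fold higher in osnat10, with a log2 difference of 0.82 (SE 0.26). Here the reference mattered: the osnat10 mean was 1.25 times the level in WT replicate 1 and 2.07 times the mean of the other WT libraries.

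Os07g0147900 was the least abundant of the 5 in osnat10, at 26.8, 26.8 and 29.5 RPKM, and spread from 19.7 RPKM in WT replicate 1 to 34.8 and 45.1 RPKM in WT replicates 2 and 3. The narrow osnat10 range lay inside the WT range. The means were 33.2 ± 12.8 RPKM in WT and 27.7 ± 1.56 RPKM in osnat10 (SD, n = 3 each), and the log2 difference of -0.18 (SE 0.29) turned to 0.08 without WT replicate 3. This gene and FNR, grouped together as root type, ran in opposite order through the WT libraries.

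**Figure D1:**
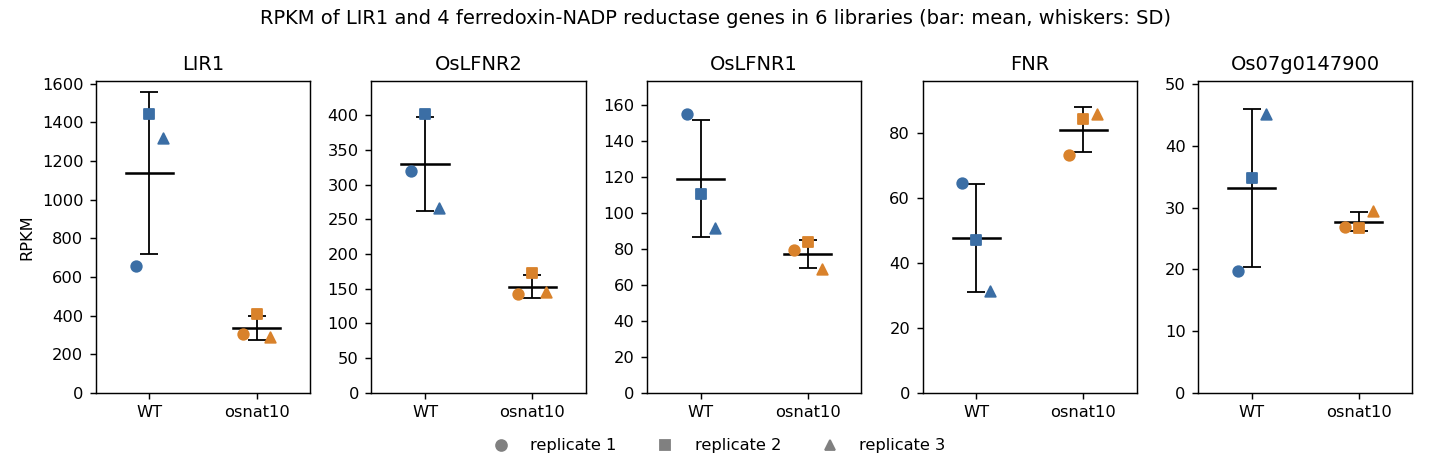
RPKM of each gene (vertical axis, linear, from 0 and scaled per panel) in the 3 WT and 3 osnat10 libraries, with the mean as a bar, the SD as whiskers and a marker shape per replicate number. LIR1, OsLFNR2 and OsLFNR1 are lower in every osnat10 library than in any WT library, FNR is higher, and Os07g0147900 overlaps.

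In the limma fit over 24380 genes with Benjamini-Hochberg adjustment, 37 genes (0.152%) passed an adjusted p under 0.05, 30 higher (0.123%) and 7 lower (0.0287%) in osnat10, and 0 of the 5 genes were among them. With median of ratios scaling in place of the deposited RPKM, the calls were 51 higher and 57 lower. At an unadjusted p under 0.05 there were 4 of the 5 genes, against 19.2% of all tested genes. Libraries of the genotypes did not overlap, with osnat10 lower, in 3 of the 5 genes and in 7.79% of all tested genes; with osnat10 higher, in 1 of the 5 and in 17.2% of all tested genes. The authors' deposited table has 1681 of 27104 genes (6.2%) at an adjusted p under 0.05, 1026 lower (3.79%) and 655 higher (2.42%) in osnat10, and 2 of the 5 genes, LIR1 and OsLFNR2, were among the lower ones. The log2 fold changes in the authors' deposited table were -1.84 for LIR1, -1.21 for OsLFNR2, -0.76 for OsLFNR1, 0.63 for FNR and -0.34 for Os07g0147900. Since the genes were chosen from this contrast, nothing is read from these counts. Without WT replicate 1 limma called 2713 genes (11.1%), LIR1, OsLFNR2 and FNR among them. Without WT replicate 3 it called 985 (4.04%), OsLFNR2 among them, and without WT replicate 2 it called 10 (0.041%), with 0 of the 5 genes. Leaving out an osnat10 library gave 8 to 11 calls, again with 0 of the 5.

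In WT replicates 1 and 2 and in osnat10 replicate 1 the levels ran, from the highest, LIR1, OsLFNR2, OsLFNR1, FNR and Os07g0147900. In WT replicate 3 the last places were exchanged, and in osnat10 replicates 2 and 3 FNR stood above OsLFNR1. In WT the ranges of OsLFNR1 and FNR were apart, and those of FNR and Os07g0147900 overlapped. In osnat10 the ranges of OsLFNR1 (68.6 to 83.9 RPKM) and FNR (73.0 to 85.7 RPKM) overlapped, so that the leaf gene and the root isozyme stood at like levels, while Os07g0147900 was below both.

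The balance between leaf and root isozymes was taken as a ratio within each library, which is unaffected by a scaling factor per library. OsLFNR1 and OsLFNR2 together made 475, 512 and 358 RPKM in WT and 221, 256 and 213 RPKM in osnat10. FNR and Os07g0147900 together made 84.3, 81.8 and 76.3 RPKM in WT and 99.9, 111 and 115 RPKM in osnat10. The summed level of all 4 reductase genes was lower in every osnat10 library, at 321 to 367 RPKM, than in any WT library, at 435 to 594 RPKM.

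The ratio of leaf to root-type RPKM was 5.63, 6.26 and 4.70 in WT and 2.21, 2.31 and 1.85 in osnat10. The groups were far apart, and WT replicate 1 lay between the other WT libraries. The means were 5.53 ± 0.786 and 2.12 ± 0.241 (SD, n = 3 each), a 2.60-fold difference, and the mean log2 ratios of 2.46 ± 0.21 and 1.08 ± 0.17 differed by -1.38. Leaf genes made up 84.9%, 86.2% and 82.4% of the reductase RPKM in WT and 68.9%, 69.8% and 64.9% in osnat10. As a ratio built from the chosen genes in the contrast they were chosen from, it carries no test.

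The ratios of each leaf gene to FNR were examined apart from those to Os07g0147900. OsLFNR1 was 2.39, 2.35 and 2.94 times FNR in WT, and 1.08, 0.995 and 0.801 times FNR in osnat10. OsLFNR2 was 4.95, 8.54 and 8.54 times FNR in WT, and 1.95, 2.04 and 1.69 times FNR in osnat10. Neither ratio overlapped between genotypes, whereas those to Os07g0147900 did: OsLFNR2 was 16.2, 11.5 and 5.92 times that gene in WT, and 5.29, 6.44 and 4.90 times in osnat10.

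**Figure D2:**
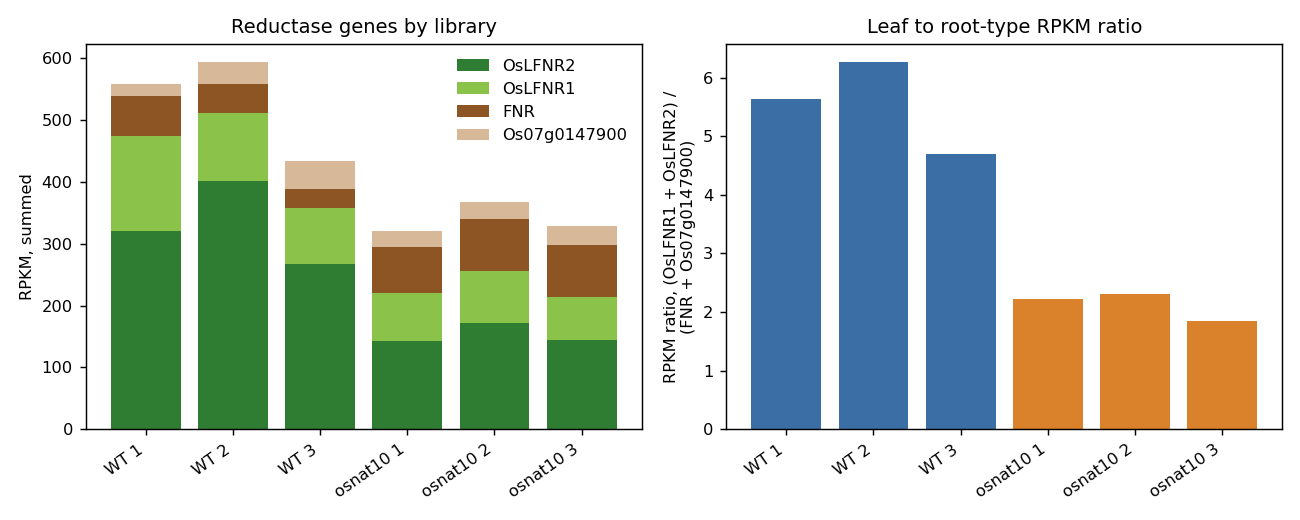
Left, RPKM of the 4 reductase genes stacked for each library; right, the RPKM of OsLFNR1 and OsLFNR2 over that of FNR and Os07g0147900 in each library, with both vertical axes linear and starting at 0. The WT ratios run from 4.70 to 6.26 and the osnat10 ratios from 1.85 to 2.31, with both a smaller leaf part and a larger FNR part in osnat10.

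Within each type the ratios overlapped between genotypes. OsLFNR2 was 2.07, 3.63 and 2.91 times OsLFNR1 in WT and 1.80, 2.05 and 2.11 times in osnat10. FNR was 3.28, 1.35 and 0.693 times Os07g0147900 in WT and 2.72, 3.15 and 2.90 times in osnat10. LIR1 was 1.39, 2.81 and 3.67 times the summed leaf reductases in WT and 1.38, 1.58 and 1.36 times in osnat10. For LIR1 over the leaf reductases and OsLFNR2 over OsLFNR1, WT replicate 1 lay inside the osnat10 range and the other WT libraries above it. For FNR over Os07g0147900, WT replicate 1 lay above the osnat10 range and the other WT libraries below it.

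Each gene had its own profile over the libraries. The Pearson correlation of log2(RPKM + 0.5) over the 6 libraries, a description of points that share their libraries and genotypes, was 0.90 between LIR1 and OsLFNR2, 0.81 between the leaf reductases and 0.54 between LIR1 and OsLFNR1. It was -0.89 between LIR1 and FNR and -0.73 between FNR and Os07g0147900. The plot of levels relative to each gene's mean sets these profiles beside 6 other genes picked after their values were seen: Fd1 (a leaf ferredoxin), the plastocyanin gene OsPC, the clock genes CCA1, OsPCL1 and GI, and the root marker RCc3.

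**Figure D3:**
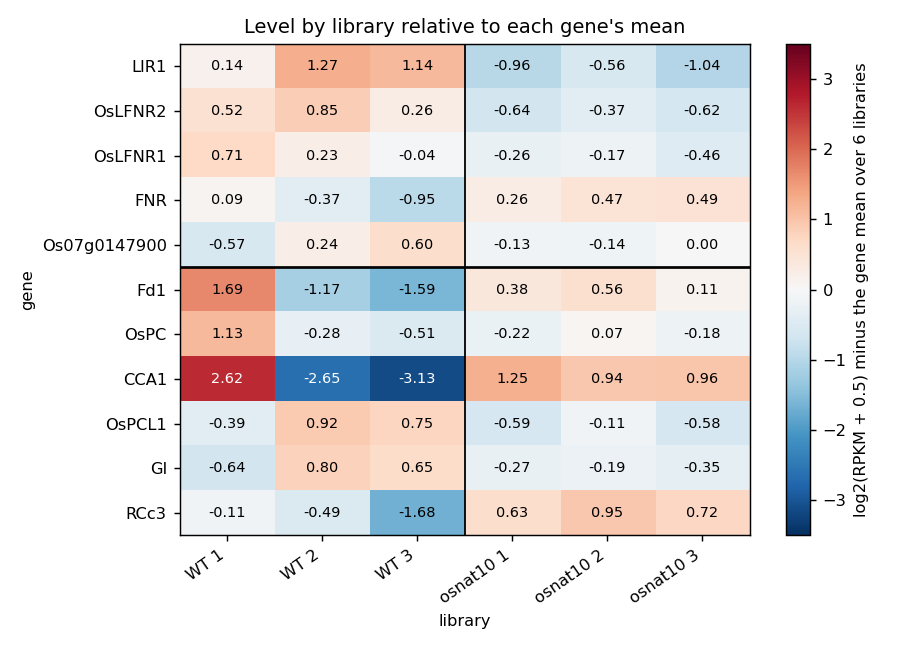
Level of each gene (rows) in each library (columns) as log2(RPKM + 0.5) minus the gene's mean over the 6 libraries, printed and coloured; the line across separates the 5 genes described from 6 others picked after their values were seen, and the vertical line separates the genotypes. LIR1 shows 0.14, 1.27 and 1.14 in WT, where CCA1 shows 2.62, -2.65 and -3.13 and RCc3 shows -0.11, -0.49 and -1.68.

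Among 10084 genes with a mean of 10 RPKM or more, the profiles most like that of LIR1 were those of OsRH3, described as an ATP-dependent RNA helicase (r = 0.998), the conserved hypothetical genes Os12g0466200 (r = 0.995), Os01g0729900 and Os06g0239200 (r = 0.994 each), and Os01g0570800, which has an IQ calmodulin-binding region (r = 0.994). Likeness covers the shape and not the size: OsRH3 ran from 161 to 233 RPKM. OsLFNR1 was most like the hypothetical gene Os02g0124866 (r = 0.993), LOGL5, described as a lysine decarboxylase-like protein (r = 0.991), Os01g0944000 (r = 0.989), the glycolate oxidase GLO4 (r = 0.987) and OsGLN2, the chloroplast glutamine synthetase (r = 0.985). The last of these reassimilates ammonia released in photorespiration, and glycolate oxidase belongs to that same pathway.

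OsLFNR2 was most like Os03g0758400, an ankyrin repeat gene (r = 0.999), Os04g0469000, with a heavy metal transport domain (r = 0.996), the ubiquitin-conjugating enzyme OsUBC46 (r = 0.995), the EF-hand gene Os04g0502900 (r = 0.993) and the Like-Sm gene Os06g0496000 (r = 0.991). FNR was most like GDCi, a glutamate decarboxylase (r = 0.998), OsHyPRP06, described as similar to the root protein RCc3 (r = 0.996), the cell wall enzyme OsXTH2 (r = 0.996), OsDAHPS1, an enzyme of chorismate synthesis (r = 0.995), and the peroxidase OsPOD (r = 0.994). Os07g0147900 was most like Os11g0629200 (r = 0.997), Os09g0470900 and OspTAC2, a pentatricopeptide protein of chloroplast development (r = 0.996 each), OsGSTF4, a glutathione transferase (r = 0.995), and Os09g0248200 (r = 0.993). With 6 libraries such values are common: between 141 genes (OsLFNR1) and 541 genes (LIR1) had r above 0.9 with the gene named.

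Genes of related functions were read from lists made by gene name or description, each with the whole-table limma test. Calls at an adjusted p under 0.05 were 0 in every list, and the number at an unadjusted p under 0.05 is given with each. Over all tested genes that share was 19.2%. The genotypes did not overlap in 7.79% of all tested genes with osnat10 lower and in 17.2% with osnat10 higher. The authors' deposited table called 6.2% of its genes with an adjusted p. Without WT replicate 1, where 11.1% of all tested genes were called, the calls were 7 of 12 ferredoxins, 1 of 12 ferredoxin-using enzymes, 2 of 3 genes of cytochrome b6f and plastocyanin, 1 of 3 of cyclic electron flow, 1 of 11 of oxidative pentose phosphate, 8 of 14 clock genes, 9 of 13 antenna genes, 7 of 11 root markers and 2 of 12 green tissue markers. The median log2 difference of all tested genes was 0.11. A log2 difference weighs the libraries of a group by ratio, so that for genes far apart between WT libraries its sign can differ from that of the difference in mean RPKM, and both splits are given.

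The ferredoxin list took genes by that word in their description, leaving out reductases and synthases, so not all need be substrates of the reductases. Its genes differed among themselves. Of 14 genes 12 passed the filter on low values, 7 with a log2 difference above 0 and 5 below (RPKM means 6 higher and 6 lower in osnat10), with a median of 0.37 on the log2 scale, and 5 had an unadjusted p under 0.05. OsFd3, described as Fd III, was at 28.8, 32.9 and 33.8 RPKM in WT, against 58.0, 50.0 and 56.9 RPKM in osnat10, with no overlap (log2 difference 0.78, SE 0.15; limma adjusted p = 0.081, and 0.020 to 0.38 over the other settings). It was called higher in the authors' deposited table. The gene described as Fd VI was at 42.0, 29.6 and 21.9 RPKM in WT, against 42.0, 50.3 and 54.2 RPKM in osnat10 (limma adjusted p = 0.20). In maize, Fd III and Fd VI are ferredoxins of non-photosynthetic tissue.

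Fd1, the leaf ferredoxin, was at 1952, 268 and 200 RPKM in WT, against 786, 890 and 653 RPKM in osnat10. The osnat10 values lay between WT replicate 1 and the other WT libraries, and the log2 difference of 0.71 had a limma adjusted p of 0.66, while the mean RPKM was 807 in WT and 776 in osnat10. This ordering was not that of the leaf reductases, and their summed RPKM was 0.243, 1.91 and 1.79 times Fd1 in WT and 0.281, 0.288 and 0.327 times in osnat10.

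Among the other ferredoxin-like genes, Os09g0514600 was at 40.6 to 51.4 RPKM in WT, against 73.3 to 83.8 RPKM in osnat10 (log2 0.76, limma adjusted p = 0.088), and OsFdC1 was at 48.1 to 71.7 and 81.3 to 86.2 RPKM (0.42, adjusted p = 0.28). OsDjC13, described as a bacterial-type ferredoxin, was at 7.33 to 10.7 and 3.99 to 4.35 RPKM (-1.06, limma adjusted p = 0.085) and was called lower in the authors' deposited table. The authors' deposited table also called Os06g0474800 lower, which was at 29.4 and 24.3 RPKM in WT replicates 2 and 3 but at 0.915 RPKM in WT replicate 1 and at 0.357, 0.258 and 0 RPKM in osnat10 (limma adjusted p = 0.12). The other 5, all overlapping between genotypes, had log2 differences of -0.60 (Os05g0157300), -0.31 (Os07g0489800), -0.22 (OsFdC2), 0.32 (Os03g0295400) and 0.66 (Os04g0412200), with limma adjusted p of 0.29, 0.37, 0.54, 0.41 and 0.54.

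Enzymes that take electrons from ferredoxin numbered 16, of which 12 were tested, 7 with a log2 difference above 0 and 5 below (RPKM means 6 higher, 6 lower), a median of 0.13 and 1 at an unadjusted p under 0.05. OsGLU, the ferredoxin-dependent glutamate synthase, was at 553, 329 and 291 RPKM in WT, against 242, 275 and 236 RPKM in osnat10, without overlap (log2 -0.58, limma adjusted p = 0.28). The variable chains of ferredoxin-thioredoxin reductase, the enzyme that passes electrons on to thioredoxin, lay on opposite sides: Os02g0638300 at 61.7 to 87.2 RPKM in WT and 50.6 to 62.0 RPKM in osnat10 (-0.41, limma adjusted p = 0.27), and Os04g0528800 at 11.6 to 15.1 and 15.8 to 19.8 RPKM (0.43, adjusted p = 0.24). Calls among the 12 were 0 in the authors' deposited table as well.

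Upstream of ferredoxin, the 3 genes of the cytochrome b6f complex and plastocyanin had a median log2 difference of -0.01, with 0 at an unadjusted p under 0.05 and 0 called in the authors' deposited table. OsPC, the plastocyanin gene, was at 3111, 1173 and 999 RPKM in WT, against 1220, 1499 and 1257 RPKM in osnat10 (log2 -0.22, limma adjusted p = 0.82). The Rieske protein gene petC was at 756, 174 and 138 RPKM in WT, against 254, 306 and 229 RPKM in osnat10 (-0.01, adjusted p = 0.995), and Os03g0765900, another subunit, had 0.34 (adjusted p = 0.80); the mean RPKM was lower in osnat10 in all 3. All 3 had osnat10 values between WT replicate 1 and the lowest WT library.

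In cyclic electron flow, which returns electrons from ferredoxin to the membrane, 3 of 4 genes were tested, with a median log2 difference of -0.10, 1 at an unadjusted p under 0.05 and 0 called in the authors' deposited table. Os08g0276100, named for NDH-dependent flow, was at 188, 167 and 153 RPKM in WT, against 110, 131 and 112 RPKM in osnat10 (-0.52, limma adjusted p = 0.16). OsPGR5 was at 127, 33.1 and 23.6 RPKM in WT, against 61.1, 82.3 and 66.0 RPKM in osnat10 (0.57, adjusted p = 0.61), and Os02g0744000 had -0.10 (adjusted p = 0.82). No gene was matched by the names of the membrane tethers TROL and Tic62.

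The oxidative pentose phosphate genes were listed by description and not by compartment, so not all need supply NADPH to the root-type reductase in plastids. OsG6PDH5 is described as a chloroplast form and Os6PGDH1 as cytosolic. All were tested, 7 of 11 with a log2 difference above 0 and 4 below (RPKM means 6 higher, 5 lower). The median was 0.16, and 3 had an unadjusted p under 0.05. Os6PGDH1 was at 23.3, 35.3 and 32.4 RPKM in WT, against 41.6, 39.3 and 42.0 RPKM in osnat10 (0.45, limma adjusted p = 0.25). Os07g0604000, a phosphogluconolactonase-like gene, was at 40.1, 66.1 and 49.9 RPKM in WT, against 35.5, 28.3 and 33.4 RPKM in osnat10 (-0.65, adjusted p = 0.16), and was the 1 gene of the list called in the authors' deposited table, as lower. Os6PGDH2 stayed under 1 RPKM in all libraries (0.71, adjusted p = 0.25).

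**Figure D4:**
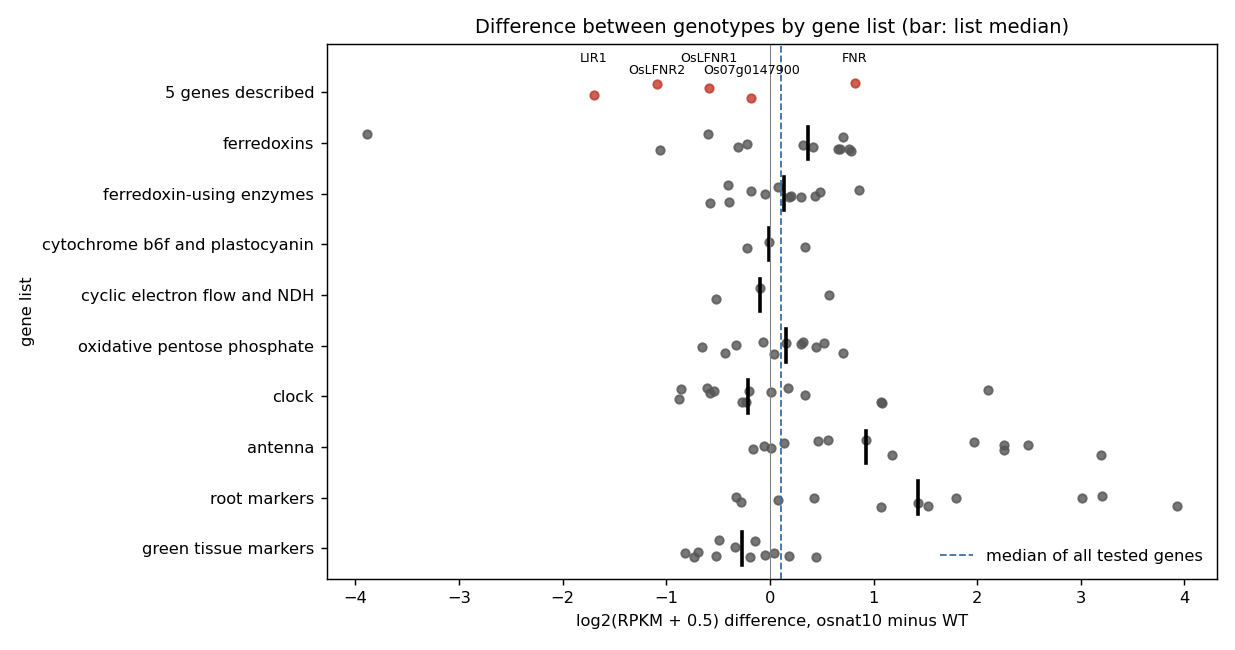
Difference between osnat10 and WT on the log2(RPKM + 0.5) scale (horizontal axis) for the 5 genes described and for the tested genes of each list, with 1 point per gene, a bar at each list's median and a dashed line at the median of all tested genes, 0.11. LIR1 lies at -1.70 and FNR at 0.82, and 0 of the listed genes passed the limma test.

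LIR1 is known to be regulated by light and by the clock, so the clock and antenna genes are given beside it. All 14 clock genes were tested, 6 with a log2 difference above 0 and 8 below (RPKM means 5 higher, 9 lower), a median of -0.22 and 4 at an unadjusted p under 0.05. Of these, OsPRR95 was at 8.62 to 15.7 RPKM in WT, against 22.5 to 23.4 RPKM in osnat10 (1.07, limma adjusted p = 0.099). OsELF3.2 was at 22.4 to 41.3 and 17.3 to 19.0 RPKM (-0.88, adjusted p = 0.13), and HD3B, a second gene like EARLY FLOWERING 3, at 15.7 to 24.4 and 13.2 to 14.0 RPKM (-0.60, adjusted p = 0.18). These last were called lower in the authors' deposited table, as was OsPCL1, which was at 46.5, 117 and 103 RPKM in WT, against 40.5, 56.5 and 40.6 RPKM in osnat10. OsPCL1 thus shared with LIR1 a WT replicate 1 that was lower than the other WT libraries. So did GI, at 72.6, 198 and 178 RPKM in WT and 88.4 to 98.9 RPKM in osnat10. The same held for OsELF3.2 (22.4, 41.3 and 41.3 RPKM in WT) and HD3B (15.7, 23.9 and 24.4 RPKM in WT). On the log2 scale, 5 of the 14 clock genes were higher in WT replicate 1 than in the mean of the other WT libraries. The median of that log2 difference was -0.40 over the clock genes and -0.23 over all tested genes. A lower WT replicate 1 was therefore common among all genes and not particular to LIR1 and the clock genes. The part of the clock genes' differences in that of LIR1 was not tested.

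Of 17 antenna genes 13 were tested, 11 with a log2 difference above 0 and 2 below, whereas the RPKM mean, which WT replicate 1 weighs on more, was higher in osnat10 in 4 and lower in 9. Their median was 0.93, all 13 overlapped between the genotypes, and 0 had an unadjusted p under 0.05 in limma. The authors' deposited table gives an adjusted p for 6 of the 17, with 0 called, and none for the others. Those 6 include Os06g0484450, which was not tested in limma. The smallest limma adjusted p values were 0.32 (CP24), 0.35 (CAB1R) and 0.41 (CAB2R). In WT replicate 1 the antenna genes were higher than in the other WT libraries by a median of 3.82 on the log2 scale, where OsLFNR2 was at 0.958 times and LIR1 at 0.477 times the mean of those libraries.

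Marker genes of roots and of green tissue were read in the same way, since the organs in each library bear on a ratio of leaf to root isozymes. In bulk tissue, fewer cells of a type and less RNA per cell cannot be told apart. Of 13 root markers 11 were tested, 9 with a log2 difference above 0 and 2 below (the RPKM means split alike). Their median log2 difference was 1.43, and 7 had an unadjusted p under 0.05 (19.2% of all tested genes). Without overlap were 5, all higher in osnat10 (17.2% of all tested genes). Their summed level ran from 458 to 889 RPKM in WT and from 1266 to 1408 RPKM in osnat10, and none was at 0 in all libraries. RCc3 was at 320, 245 and 107 RPKM in WT, against 534, 667 and 568 RPKM in osnat10 (1.53, limma adjusted p = 0.11), and RCc2 at 19.5 to 36.2 and 51.0 to 91.4 RPKM (1.43, adjusted p = 0.085); both were called higher in the authors' deposited table. The nitrate transporter gene NRT2.2 had 3.01 (limma adjusted p = 0.13), while the silicon transporter genes LSI1 and LSI2 had -0.33 and -0.28. RCc3 and FNR ran in the same order through the WT libraries, highest in replicate 1 and lowest in replicate 3.

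All 12 green tissue markers were tested, 3 with a log2 difference above 0 and 9 below (RPKM means 1 higher, 11 lower). The median was -0.27, and 1 had an unadjusted p under 0.05 (19.2% of all tested genes). Without overlap were 3, all lower in osnat10 (7.79% of all tested genes). Those 3 were OsGLO1, a glycolate oxidase (-0.69), the Calvin cycle gene OsPrk (-0.82) and the sedoheptulose bisphosphatase gene Os04g0234600 (-0.52), with limma adjusted p of 0.15, 0.29 and 0.34; OsGLO1 was called lower in the authors' deposited table. The summed level was 30813, 13109 and 8197 RPKM in WT and 10762 to 13840 RPKM in osnat10, so that the sums overlapped, and none of the markers was at 0 in all libraries. The list shares 1 gene, CAO, with the ferredoxin-using enzymes. The part of the root and green tissue markers in the ratio of leaf to root isozymes was not tested.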

How the data were processed

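RPKM per gene for 3 WT and 3 osnat10 libraries were deposited by the authors for 38978 genes. The submitters' processing notes name STAR 2.5.3a, deepTools, DESeq2 and the build IRGSP-1.0; neither the counter nor the use of strand in counting is given in the sources used here, so reads of overlapping or antisense genes and near-identical copies are uncertain. The authors' deposited comparison holds a mean normalised signal per gene, a log2 fold change with its standard error, a Wald score (not used) and p-values with adjusted p-values. The columns are those of DESeq2, per the file headers.

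Whole reads were recovered from the RPKM steps and the authors' mean signal: 99.98% of 174814 values above 0 were whole within 0.05 reads. No count test was run on them. Genes with at least 0.5 RPKM in 3 or more libraries (24380) entered limma 3.58.1 (R 4.3.3) as log2(RPKM + 0.5) values (empirical Bayes with trend, no covariates, Benjamini-Hochberg adjustment, threshold 0.05); on this scale the change of a low gene is understated. The steps were checked on data with known answers. Values were simulated with each gene's mean and a spread averaged over WT and osnat10, drawn independently for each library. Only genes above a low mean level were changed. The wider spread of WT and the joint shift of WT replicate 1 were thus not simulated. In these values limma called 6 of 67 genes changed 2-fold. It called 44 of 67 changed 4-fold and 53 of 66 changed 8-fold. Most 2-fold changes were thus missed in this simpler setting, and power in the real libraries was not measured. Counts of 0 calls do not show that genes were unchanged. Ratios, lists and plots were made with Python 3.11.15, numpy 2.4.6, pandas 2.3.3 and matplotlib 3.10.9.

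The genes and lists were chosen with earlier results of these data known. Named were all 5 genes, every tested ferredoxin, the 3 genes of smallest p in each other list, and the 5 most alike profiles per gene; other genes were chosen after their values were seen. Replicates are biological by the design text; whether they were grown separately is not given, so p-values measure the spread between these libraries. Other pseudocounts, filters, scalings, a replicate block and leaving out each library were tried. The acetylated-RNA libraries were left out because they measure another quantity.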

Additional observations from a re-analysis of the deposited data

How the results depend on the processing

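Of 231 recomputed values 193 counted as the same and 38 moved further. A number of calls counted as the same within a set factor of the main number. A log2 difference did so if it moved by less than the spread between replicates. Crossing the threshold was not scored: LIR1, OsLFNR2 and FNR, called only without WT replicate 1 or, for OsLFNR2, also without WT replicate 3, counted as the same. The difference of Os07g0147900, which was not called, changed sign without WT replicate 3 and also counted as the same. Against 37 limma calls, 30 higher and 7 lower, a pseudocount of 0.1 gave 19 higher, median of ratios scaling gave 108 (51 higher, 57 lower), and quantile normalisation gave 24 lower. Scaling moved the median of all genes from 0.11 to 0.01 and -0.03. The replicate block gave 20 calls (16 higher, 4 lower). Same-numbered libraries deviated with correlations of -0.059, -0.026 and 0.126, and differently numbered ones with -0.106 to 0.117. Whether the numbers pair the samples is not given in the labels, and these values from 3 libraries per genotype cannot decide it.

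Leaving out each library in turn gave 8 to 2713 calls, 8 to 1532 higher and 0 to 1181 lower. The log2 differences ran from -2.06 to -1.49 for LIR1, -0.76 to -0.39 for OsLFNR1, -1.23 to -0.94 for OsLFNR2, 0.55 to 1.07 for FNR and -0.51 to 0.08 for Os07g0147900. Calls ran from 0 to 7 in ferredoxins, 0 to 1 in ferredoxin-using enzymes, 0 to 2 in cytochrome b6f and plastocyanin, 0 to 1 in cyclic electron flow, 0 to 1 in oxidative pentose phosphate, 0 to 8 in clock, 0 to 9 in antenna, 0 to 7 in root markers and 0 to 2 in green tissue markers, each highest without WT replicate 1. The log2 leaf to root difference ran from -1.49 to -1.28. It was -1.16 from the mean of log2 values over isozymes and -1.78 with FNR as the only root isozyme, an alternative chosen after seeing the data. The cause was not tested.

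Precision is limited by 3 libraries per genotype and the spread of WT. Without sampling hour or organ in the labels, differences in either between libraries cannot be told apart from genotype.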
